A study of Mus musculus with 2 samples.

Results

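The vacuolar H+-ATPase (V-ATPase) and the lysosomal machinery of mTORC1 were described through 36 genes, taken by symbol from a list, out of 15605 genes listed in either library. All 36 were listed in both libraries, and all 36 reached 50 estimated counts in one or both, the minimum set here for comparing sizes. They comprise 18 V-ATPase genes and 18 genes of amino acid signalling at the lysosome. The RNA came from peritoneal macrophages of C57BL/6 mice aged 6 to 8 weeks, either Lgmn knockout (labelled lgmn-/-) or wild type, and both cultures had been co-cultured with EO771, a carcinoma line of the mouse mammary gland, for 4 days and the macrophages washed before total RNA was taken. Lgmn encodes legumain, an asparaginyl endopeptidase of the lysosome. Each genotype was represented by a single library. Differences between the genotypes therefore lack any replicate, and p-values were not computed. The sources used here do not give how many mice provided the cells, which part of Lgmn was deleted or whether a membrane separated the cell types.

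The V-ATPase pumps protons into lysosomes and endosomes. Its cytosolic V1 sector hydrolyses ATP, and its membrane-embedded V0 sector carries the protons. In macrophages the acid it makes serves the breakdown of engulfed material, and in osteoclasts, which share the macrophage lineage, it serves bone resorption. The same membrane is where mTORC1, a kinase complex that couples growth to nutrients, is switched on. The Ragulator scaffold holds the Rag GTPases there, the Rags recruit mTORC1 when amino acids are plentiful, and the small GTPase Rheb, which the TSC complex restrains, activates it.

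The library labels and the cell type were checked first. Lgmn (chromosome 12, 102394082 to 102439728 in GRCm38) had 426 estimated counts and 19.2 FPKM in the knockout library, against 23550 counts and 1048 FPKM in the wild type library. FPKM is the authors' value, in which fragments are scaled by transcript length and library size. The macrophage markers Lyz2 (lysozyme) and Cd68 stood at 12481 and 3756 FPKM in the knockout library, against 13192 and 5173 FPKM in the wild type library. Csf1r, Itgam and Adgre1, of the same list, had 193, 121 and 111 FPKM in the knockout library, against 83.8, 66.7 and 67.3 FPKM. Cx3cr1 had 8 counts in the knockout library and 11 in the wild type library. The TMM-scaled log2 ratios of the 9 tested markers of this list were above 0 for 5 and below 0 for 4. Total estimated counts were 11740202 in the knockout library and 11885784 in the wild type library. The log2 ratio between the libraries moved with transcript length. The 9498 genes tested for size were cut into 10 groups by length. The shortest transcripts had a median ratio of -0.37 and the longest one of 0.77. Ratios are given as scaled (TMM) and, for the main values, also after removal of a lowess trend on length. The cause of the trend was not tested.

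**Figure D1:**
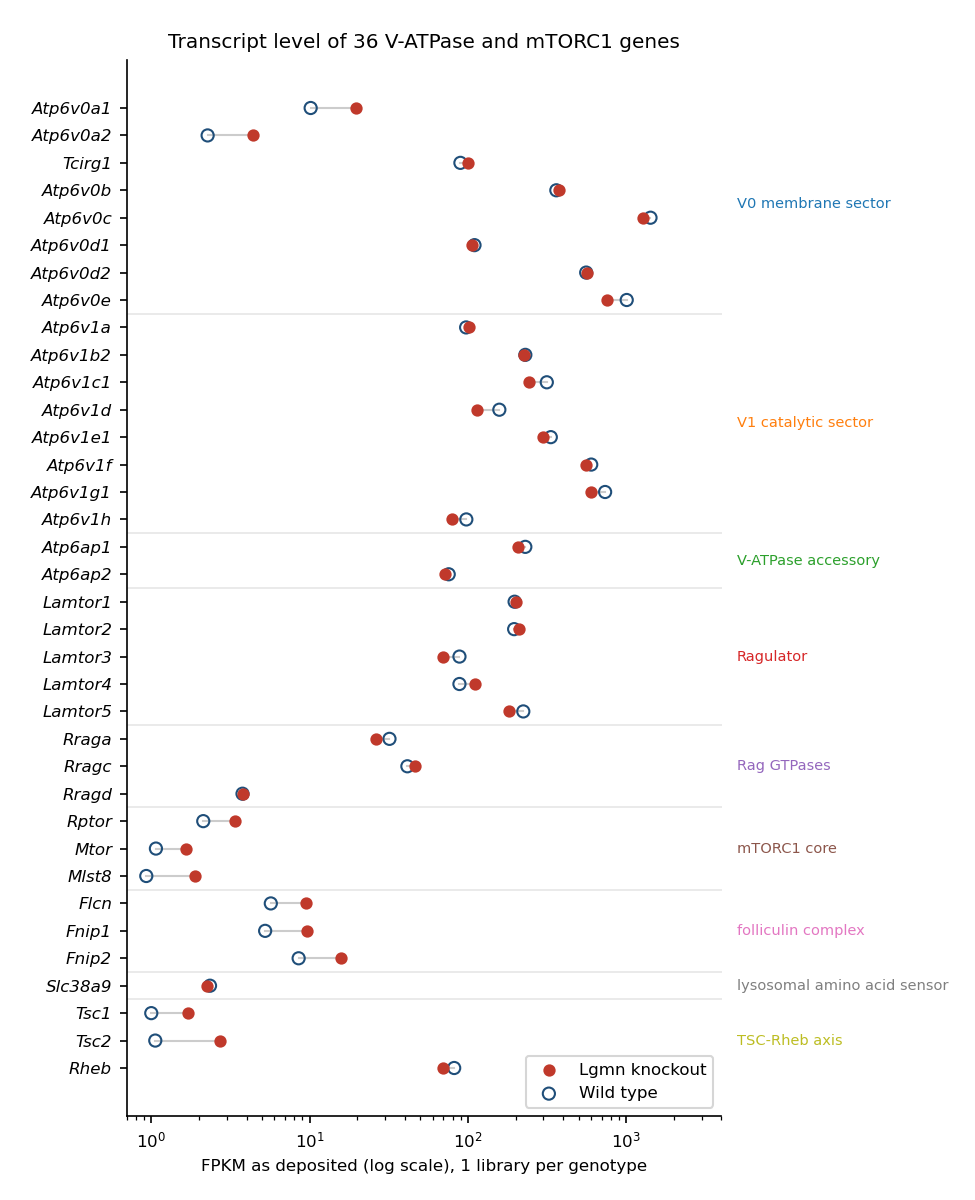
Deposited FPKM (log axis) of the 36 genes, grouped by role, in the Lgmn knockout library (filled red) and the wild type library (open blue), 1 library each. The V-ATPase and Ragulator genes other than Atp6v0a1 and Atp6v0a2 lie between 69.6 and 1424 FPKM, while Mtor, Rptor, Mlst8, Flcn, Fnip1, Fnip2, Tsc1 and Tsc2 lie at 15.8 FPKM or less, each higher in the knockout library.

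Most V-ATPase genes were among the abundant transcripts of both libraries. Of the 18, 14 ranked in the first 1000 genes by FPKM in each library. Their FPKM summed to 5715 in the knockout library and 6442 in the wild type library. No replicate spread exists for these levels, so the order of genes that lie close together is uncertain.

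In the V0 sector Atp6v0c, which encodes the proteolipid c of the proton-carrying ring, came highest, and it had 1284 FPKM in the knockout library, against 1424 FPKM in the wild type library, and ranked 111 by FPKM in both. Its estimated count was not whole, as for 6 of the 36 genes (Atp6v0c, Atp6v0d2, Rragd, Rheb, Flcn and Fnip2), which marks reads split between similar sequences and makes those levels less certain. Atp6v0e, a small membrane subunit, had 760.0 and Atp6v0b, a second proteolipid of the ring, had 374 FPKM in the knockout library, against 1008 and 362 FPKM in the wild type library. Atp6v0c and Atp6v0e thus exceeded every other V0 gene in both libraries, and Atp6v0b exceeded the remaining ones except Atp6v0d2.

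The subunits a and d exist as isoforms, and in both libraries 1 isoform of each made up most of the transcript level. Tcirg1, the a3 isoform known from osteoclast and macrophage lysosomes, had 101 FPKM in the knockout library and 89.7 FPKM in the wild type library. Atp6v0a1, the a1 isoform, had 19.6 FPKM in the knockout library and 10.2 FPKM in the wild type library. Atp6v0a2, the a2 isoform known from the Golgi, had 4.38 FPKM in the knockout library and 2.27 FPKM in the wild type library. Tcirg1 accounted for 80.8% of the summed a-subunit FPKM in the knockout library and 87.8% in the wild type library. Atp6v0d2, the d isoform of osteoclasts and macrophages, had 562 FPKM in the knockout library and 559 FPKM in the wild type library. Its ubiquitous counterpart Atp6v0d1 had 106 FPKM in the knockout library and 110 FPKM in the wild type library. Atp6v0d2 accounted for 84.2% of the d-subunit FPKM in the knockout library and 83.5% in the wild type library.

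In the V1 sector the levels ran from 78.9 FPKM for Atp6v1h to 601 FPKM for Atp6v1g1 in the knockout library, and from 97.5 FPKM for Atp6v1a to 736 FPKM for Atp6v1g1 in the wild type library. Atp6v1a and Atp6v1b2 encode the subunits that form the catalytic head. Atp6v1a had 102 FPKM in the knockout library and 97.5 in the wild type library, and Atp6v1b2 had 225 FPKM in the knockout library and 231 in the wild type library. Atp6v1e1 and Atp6v1g1 encode the peripheral stalk, and Atp6v1e1 had 299 FPKM in the knockout library and 334 FPKM in the wild type library. Atp6v1f, of the central stalk, had 561 FPKM in the knockout library and 601 FPKM in the wild type library. The accessory proteins Atp6ap1 and Atp6ap2 had 207 and 72.0 FPKM in the knockout library, against 231 and 75.7 FPKM in the wild type library. Isoforms known from kidney, testis, brain or other tissues were near or below detection. Of 7 such genes, Atp6v0a4, Atp6v1b1, Atp6v1c2, Atp6v1e2 and Atp6v1g3 were listed in neither library, Atp6v0e2 had 5 counts in the knockout library and 8 in the wild type library, and Atp6v1g2 had 31 counts in the knockout library and 17 in the wild type library.

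The counts of the 36 genes that passed a size threshold were read beside the shares over all tested genes. As scaled, 1 gene was 2-fold or more higher (Tsc2) and 0 were 2-fold or more lower, where 6.07% of all tested genes passed on the higher side and 1.74% on the lower side. After length adjustment 0 were higher and 1 was lower (Slc38a9), where 2.14% and 1.9% of all genes passed. At 1.5-fold, 6 genes were higher (Atp6v0a1, Atp6v0a2, Mlst8, Fnip1, Fnip2 and Tsc2), where 16.5% of all genes passed, and 4 were lower (Atp6v0e, Atp6v1c1, Atp6v1d and Lamtor3), where 6.39% passed. After length adjustment at 1.5-fold 1 was higher (Mlst8) and 2 were lower (Rragd and Slc38a9), where 7.74% and 6.33% of all genes passed. By TMM 25 of the 36 ratios were below 0 and 11 above. Of the ratios below 0 by TMM, those of Tcirg1, Atp6v0b, Atp6v0d2, Atp6v1a, Lamtor1, Lamtor2, Rragc and Rragd were above 0 by library totals or FPKM. Library totals put the median over all tested genes at 0.24, and FPKM with 0.1 or 1 added put it at 0.23 or 0.20.

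**Figure D2:**
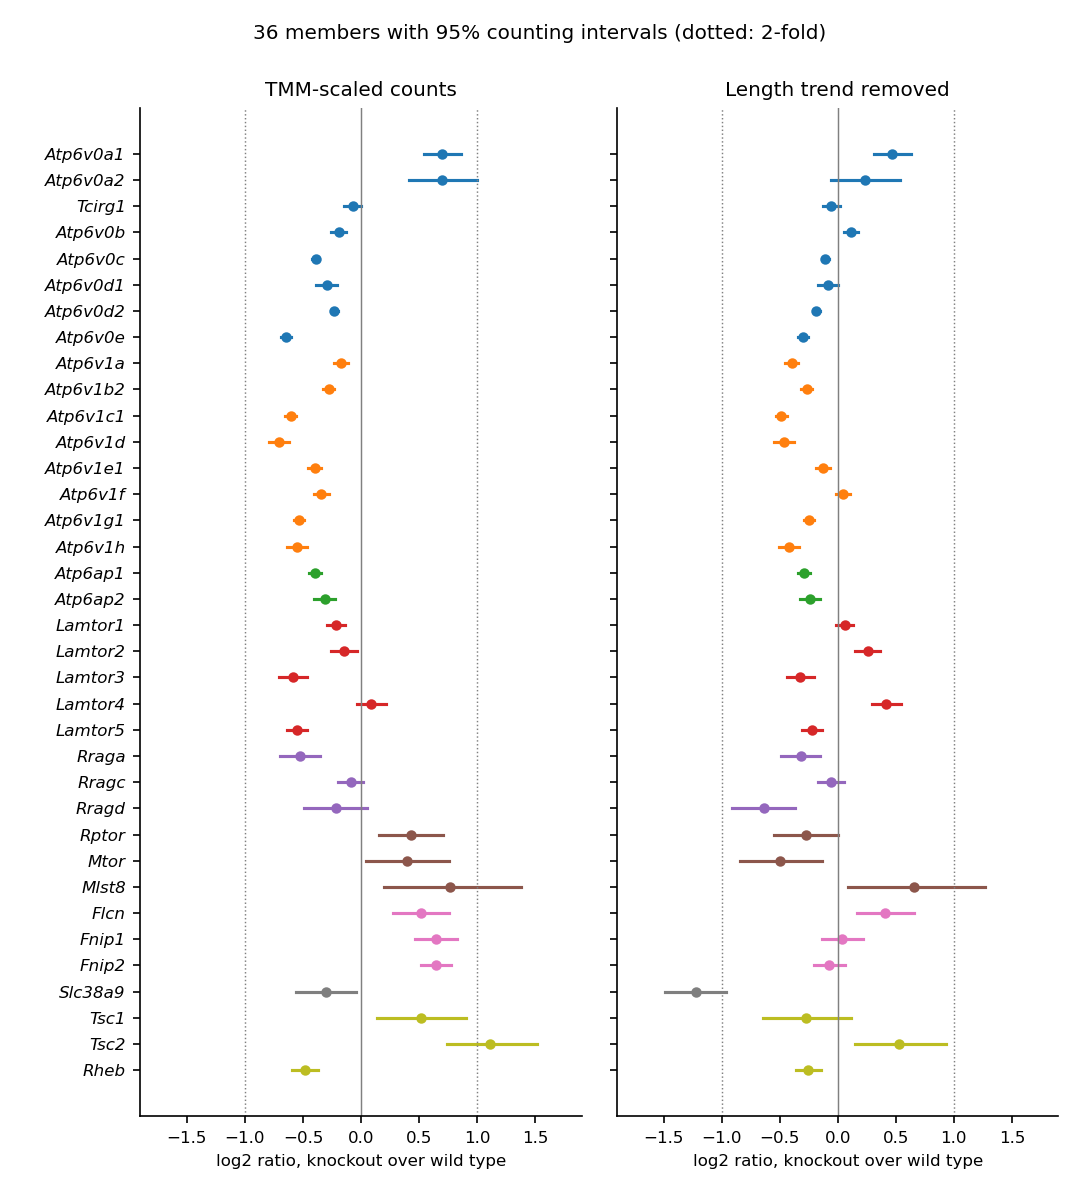
Log2 ratio of the Lgmn knockout library over the wild type library for each of the 36 genes, as TMM-scaled counts (left) and with the length trend removed (right). Horizontal bars are 95% counting intervals, colours mark the roles and dotted lines mark 2-fold. Tsc2 passes 2-fold on the left and Slc38a9 on the right, and the 16 V-ATPase genes other than Atp6v0a1 and Atp6v0a2 lie left of 0 in the left panel.

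As scaled, Atp6v0a1 and Atp6v0a2 were the V-ATPase genes with higher values in the knockout library, and the other 16 had lower values. None of the 18 passed 2-fold in either direction, where 6.07% of all tested genes were higher and 1.74% lower by that much, so this count is near the share over all genes. By TMM the 18 had a median log2 ratio of -0.33, where the median over all tested genes was near 0. Scaling by library totals, which moved the median over all genes by 0.24, left 12 lower and 6 higher, and removal of the length trend left 14 lower and 4 higher. The median of the 18 was -0.21 after removal of the trend, where that over all genes was -0.01. Total RNA was taken in bulk, so fewer cells of a type and less RNA per cell cannot be told apart.

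The 8 V1 genes lay lowest as a set, with medians of -0.47 as scaled and -0.33 adjusted on the log2 scale. All 8 were below 0 as scaled by TMM, but Atp6v1a was above 0 by library totals and by FPKM, and Atp6v1f was above 0 after length adjustment. Atp6v1d, of the central rotor stalk, had 1897 counts in the knockout library and 2654 in the wild type library, 1.63-fold lower with a 95% counting interval of 1.54 to 1.73. Atp6v1c1, which joins V1 to V0, had 6133 counts in the knockout library and 8018 in the wild type library, 1.52-fold lower (1.47 to 1.58). After length adjustment these 2 ratios were 1.38-fold and 1.40-fold lower. Atp6v1h, which in yeast keeps detached V1 inactive, was 1.46-fold lower (1.38 to 1.56), and 1.34-fold lower after length adjustment, with 1928 counts in the knockout library and 2422 in the wild type library. These intervals cover counting error only. Reads lacking molecular identifiers need not stand for separate molecules, and variation between mice or cultures is not included.

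The V0 genes spread more widely. Atp6v0e had 6998 counts in the knockout library and 9409 in the wild type library, 1.57-fold lower (1.52 to 1.62), and 1.23-fold lower after length adjustment. Atp6v0a1 had 932 counts in the knockout library and 492 in the wild type library, 1.63-fold higher (1.46 to 1.82), and 1.38-fold higher (1.24 to 1.55) after length adjustment. Atp6v0a2 had 281 counts in the knockout library and 148 in the wild type library, also 1.63-fold higher (1.33 to 2.0), and 1.18-fold higher (0.963 to 1.45) after adjustment. Atp6v0a2 shares 662 exonic bases with a gene on the opposite strand, and no source used here gives the strand handling. Both lie among the longer transcripts, at 3989 and 5357 bases, while Tcirg1, at 2711 bases, had a log2 ratio of -0.07 as scaled and -0.06 adjusted.

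A ratio of 2 isoforms within a library does not depend on how the libraries were scaled. The ratio of Tcirg1 to Atp6v0a1 in FPKM was 5.14 in the knockout library and 8.83 in the wild type library. As an odds ratio of counts this was 1.71-fold lower in the knockout library (1.51 to 1.93), and 1.44-fold lower (1.28 to 1.63) with the length trend removed. The ratio of Atp6v0d2 to Atp6v0d1 was 5.31 in the knockout library and 5.08 in the wild type library, an odds ratio of 1.05 (0.981 to 1.12), or 0.933 (0.875 to 0.996) with the trend removed. The ratio of Atp6v0a2 to Atp6v0a1 was 0.224 in the knockout library and 0.223 in the wild type library, with an odds ratio of 1.0 (0.794 to 1.27), or 0.852 (0.675 to 1.08) with the trend removed. Among the a isoforms the proportion of Tcirg1 to Atp6v0a1 thus differed between the libraries beyond counting error, while the interval for Atp6v0a2 to Atp6v0a1 included 1.

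Many V-ATPase and mTORC1 genes are known targets of the factors TFEB and TFE3, which bind a palindromic E-box. The promoters are shown for that reason. RefSeq promoter windows of GRCm38.p6, 250 bases before to 50 after the annotated start, were at hand for 29 of the 36 genes. TCACGTGA, a palindrome and so the same on both strands, was found in 3 of these 29, and in 1.12% of all 27025 genes with a window. The shorter CACGTG, which lies within it, was found in 9 of the 29, and in 8.09% of all genes. The 3 windows with TCACGTGA are printed on the strand of the gene, with the motif in capitals.

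Atp6v0d1, chr8:105566015-105566314, minus strand: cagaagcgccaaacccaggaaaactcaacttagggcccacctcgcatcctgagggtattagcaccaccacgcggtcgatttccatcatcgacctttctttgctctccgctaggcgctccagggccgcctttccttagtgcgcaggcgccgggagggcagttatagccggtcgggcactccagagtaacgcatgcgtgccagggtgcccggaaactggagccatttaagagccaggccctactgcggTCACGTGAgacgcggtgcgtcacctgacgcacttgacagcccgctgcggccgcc
Atp6v0e, chr17:26676146-26676445, plus strand: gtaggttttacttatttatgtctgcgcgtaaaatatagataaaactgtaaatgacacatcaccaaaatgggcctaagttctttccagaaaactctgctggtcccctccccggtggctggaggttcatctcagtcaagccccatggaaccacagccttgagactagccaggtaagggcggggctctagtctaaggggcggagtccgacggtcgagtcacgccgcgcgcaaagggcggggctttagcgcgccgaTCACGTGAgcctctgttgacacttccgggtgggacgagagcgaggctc
Atp6v1a, chr16:44139210-44139509, minus strand: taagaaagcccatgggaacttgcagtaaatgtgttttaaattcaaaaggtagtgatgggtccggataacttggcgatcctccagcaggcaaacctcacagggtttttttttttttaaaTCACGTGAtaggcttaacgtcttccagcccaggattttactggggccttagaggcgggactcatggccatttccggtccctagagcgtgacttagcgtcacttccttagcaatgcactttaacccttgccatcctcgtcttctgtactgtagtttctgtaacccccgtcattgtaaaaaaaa

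CACGTG starts 3 bases before the annotated start in Atp6v0d1 and 131 bases before it in Atp6v1a, and at base 4 of the transcript in Atp6v0e. The Atp6v1a window, up to 44139509, lies inside the RefSeq span of the gene, which runs to 44139702. The start used for Atp6v1a is therefore not the outermost one of that span. The other 6 members with CACGTG are shown by the stretch around the motif, again in capitals.

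Atp6v0b, chr4:117887322-117887385, minus strand: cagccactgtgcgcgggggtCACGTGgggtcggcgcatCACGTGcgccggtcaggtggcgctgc
Lamtor1, chr7:101905749-101905794, plus strand: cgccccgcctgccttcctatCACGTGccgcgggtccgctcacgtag
Lamtor4, chr5:138255342-138255403, plus strand: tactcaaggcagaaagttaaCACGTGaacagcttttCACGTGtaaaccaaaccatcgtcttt
Rragc, chr4:123917301-123917346, plus strand: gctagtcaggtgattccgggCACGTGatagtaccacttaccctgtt
Fnip1, chr11:54438084-54438129, plus strand: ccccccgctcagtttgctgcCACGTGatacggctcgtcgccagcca
Rheb, chr5:24842432-24842477, minus strand: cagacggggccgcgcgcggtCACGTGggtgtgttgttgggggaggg

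The motif falls on genes of the pump, of Ragulator, of the Rags, of the folliculin complex and on Rheb, and Atp6v0b and Lamtor4 hold it 2 times each. The 9 genes with CACGTG had a median log2 ratio of -0.19, and the 20 without it one of -0.18, or -0.06 and -0.17 after length adjustment. A match is a description of these letters and not a bound site. Of the factors themselves, Tfeb had 9.29 FPKM in the knockout library and 7.81 FPKM in the wild type library, Tfe3 had 17.8 FPKM in the knockout library and 11.67 FPKM in the wild type library, and Mitf, a relative, had 10.1 FPKM in the knockout library and 5.93 FPKM in the wild type library. In the same order, their scaled log2 ratios were 0.02, 0.37 and 0.52, and the adjusted ones 0.10, 0.32 and 0.13. The counting intervals of Tfeb as scaled (0.844 to 1.22) and of Mitf as adjusted (0.956 to 1.25) included a ratio of 1.

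The 5 Ragulator genes ran from 69.6 to 209 FPKM in the knockout library and from 88.5 to 224 FPKM in the wild type library. Lamtor1, which anchors the complex in the membrane, had 201 FPKM in the knockout library and 197 FPKM in the wild type library. Lamtor2 had 209 FPKM in the knockout library and 196 FPKM in the wild type library, and Lamtor5 had 181 FPKM in the knockout library and 224 FPKM in the wild type library. None of the 5 passed 2-fold, where 6.07% of all tested genes were higher and 1.74% lower by that much. This count is near the share over all genes. Lamtor3, the partner of Lamtor2, had 1030 counts in the knockout library and 1327 in the wild type library, 1.5-fold lower (1.38 to 1.63), and 1.25-fold lower after length adjustment. Lamtor4 had 1156 counts in the knockout library and 934 in the wild type library, a ratio of 1.06 (0.973 to 1.16), and of 1.34 (1.22 to 1.46) after adjustment. Of the 5 genes, 4 were below 0 by TMM, 2 by library totals and 2 after length adjustment, so the set had no direction common to these settings.

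The Rag GTPases work as pairs of one A or B with one C or D. Rragc had 46.0 FPKM in the knockout library and 41.5 FPKM in the wild type library, and Rraga had 26.2 FPKM in the knockout library and 31.97 FPKM in the wild type library. Rragd had 3.82 FPKM in the knockout library and 3.77 FPKM in the wild type library. Rragb had 3 counts in the knockout library and was not listed in the wild type library, so the A and C forms made up most of the Rag transcripts here. Rraga, with 511 counts in the knockout library and 632 in the wild type library, was 1.44-fold lower (1.28 to 1.62), and 1.25-fold lower after length adjustment. Rragd, with 231 counts in each library after rounding, had a log2 ratio of -0.22, which became -0.64 once the trend for its 5047 bases was removed. All 3 Rag genes were below 0 by TMM and after length adjustment, but Rragc and Rragd were above 0 by library totals. The odds ratio of Rragd to Rragc was 0.914 (0.746 to 1.12), or 0.669 (0.547 to 0.819) with the trend removed.

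The genes of the mTORC1 core were far lower per length than the scaffold that receives them. The core transcripts are also longer, at 3357 bases or more, against at most 1263 bases for Ragulator. Over the 36 genes FPKM fell with length, with Spearman's rho of -0.81 in the knockout library and -0.79 in the wild type library. The part of length in this contrast was not tested. Mtor, the kinase, had 1.66 FPKM in the knockout library and 1.07 FPKM in the wild type library. Rptor, which recognises substrates and the Rags, had 3.38 FPKM in the knockout library and 2.13 FPKM in the wild type library. Mlst8, a subunit bound to the kinase domain, had 1.9 FPKM in the knockout library and 0.93 FPKM in the wild type library. Their raw counts were higher in the knockout library for all 3, at 172, 284 and 76, against 112, 181 and 38 in the wild type library. Mtor was 1.32-fold higher (1.03 to 1.69) and Rptor 1.35-fold higher (1.11 to 1.63) as scaled, and after length adjustment Mtor was 1.41-fold lower (1.10 to 1.80) and Rptor 1.21-fold lower with an interval that included 1 (0.996 to 1.46). The direction for these 2 long transcripts therefore turned with the adjustment. Mlst8 was 1.72-fold higher (1.15 to 2.60), and 1.59-fold higher (1.06 to 2.41) after adjustment, but it shares 997 exonic bases with Bricd5 on the opposite strand, which had 8 counts in the knockout library and 7 in the wild type library.

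The folliculin complex acts on RagC and RagD and keeps the factors TFEB and TFE3 under mTORC1 control. Flcn had 9.54 FPKM in the knockout library and 5.69 FPKM in the wild type library. Its partners Fnip1 and Fnip2 had 9.68 and 15.8 FPKM in the knockout library, against 5.24 and 8.53 FPKM in the wild type library. As scaled, Fnip1 was 1.56-fold higher (1.38 to 1.77), Fnip2 1.56-fold higher (1.43 to 1.71) and Flcn 1.43-fold higher (1.21 to 1.69). After length adjustment Flcn was 1.33-fold higher (1.13 to 1.57), while Fnip1 was at 1.03 (0.909 to 1.17) and Fnip2 at 0.952 (0.869 to 1.04). The odds ratio of Fnip2 to Fnip1 was 0.998 (0.855 to 1.16), or 0.925 (0.793 to 1.08) with the trend removed.

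Tsc2 was the only one of the 36 genes to pass 2-fold as scaled. It encodes tuberin, the subunit that acts on Rheb, and lies on chromosome 17 at 24595816 to 24632676 in GRCm38. It had 200 counts and 2.70 FPKM in the knockout library, against 79 counts and 1.06 FPKM in the wild type library, 2.17-fold higher (1.67 to 2.86). Its transcript is 6152 bases long, and 32.5% of the 950 genes in the group with the longest transcripts passed 2-fold on the higher side. Among those 950 genes Tsc2 ranked 248 from the top by the scaled ratio. After length adjustment it was 1.45-fold higher (1.11 to 1.9), under the threshold. Tsc2 shares 693 exonic bases with Pkd1 on the opposite strand, which had 102 counts in the knockout library and 23 in the wild type library, and the part of this overlap in the ratio was not tested.

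The other genes of this axis were less apart. Tsc1, which encodes the partner hamartin, had 157 counts in the knockout library and 94 in the wild type library, 1.43-fold higher (1.10 to 1.87), and 1.20-fold lower (0.922 to 1.56) after length adjustment. The odds ratio of Tsc2 to Tsc1 was 1.51 (1.04 to 2.22), and 1.74 (1.19 to 2.55) with the trend removed. Rheb had 69.4 FPKM in the knockout library and 81.9 FPKM in the wild type library, 1.40-fold lower (1.29 to 1.51), and 1.19-fold lower after adjustment.

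Slc38a9 was the only one of the 36 genes to pass 2-fold after length adjustment. It encodes a lysosomal transporter that senses arginine for the Rags, and lies on chromosome 13 at 112656189 to 112738752 in GRCm38. It had 241 counts and 2.25 FPKM in the knockout library, against 255 counts and 2.35 FPKM in the wild type library. As scaled it was 1.23-fold lower (1.03 to 1.48). Genes of its length, 8913 bases, had a trend of 0.92 on the log2 scale, and relative to that trend it was 2.34-fold lower (1.95 to 2.80). Among the 950 genes in the group with the longest transcripts Slc38a9 ranked 33 from the bottom by the scaled ratio, before any adjustment. In that group 5.05% of genes passed 2-fold on the lower side after adjustment.

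**Figure D3:**
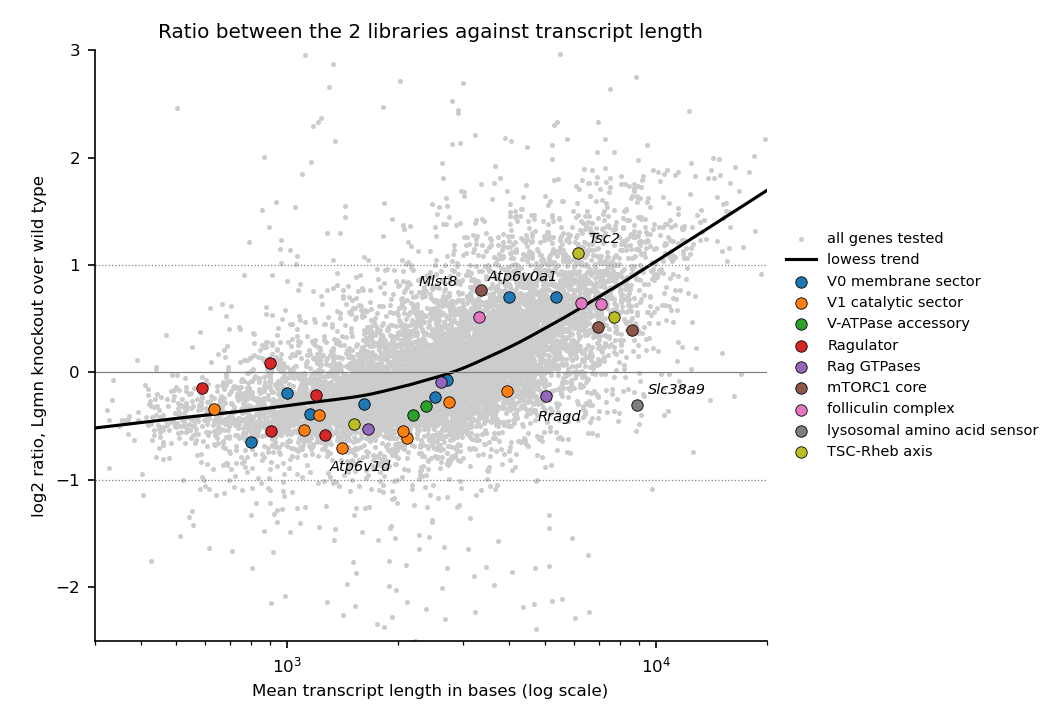
Log2 ratio of the Lgmn knockout library over the wild type library against mean transcript length (log axis) for all tested genes (grey) and the 36 members (coloured by role), with the lowess trend in black and dotted lines at 2-fold. Genes outside the axis ranges are not drawn. Members of short transcripts lie mostly below 0 and most of the long ones above it, Slc38a9 and Rragd lie under the trend, and Tsc2, Mlst8 and Atp6v0a1 lie over it.

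The ratios of the 36 genes followed transcript length much as those of all genes did. Across these genes, which share 2 libraries and are not independent, Spearman's rho between log2 ratio and transcript length was 0.614 (n = 36), and over all tested genes it was 0.609. Of 23 members under 3000 bases, 22 were below 0, with a median of -0.39. Of 13 members of 3000 bases or more, 10 were above 0, with a median of 0.51. After length adjustment the medians of the shorter and longer members were -0.22 and -0.07. As scaled, all tested genes in the length groups up to 2744 bases had group medians from -0.37 to -0.07. Those in the groups from 3218 bases had group medians from 0.13 to 0.77. The SD of the adjusted log2 ratio was 0.25 over the 18 V-ATPase genes and 0.50 over all tested genes. These sets were not matched for counts. Among the 18, Atp6v0a2 had the fewest, with 281 in the knockout library and 148 in the wild type library. The tested genes as a whole reach down to the minimum count set for comparing sizes. Counting error is larger at low counts, and its part in this contrast was not tested.

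Neighbouring genes of the same pathways were taken from lists and counted in the same way. Of 8 tested genes for V-ATPase assembly factors and the RAVE complex, which rejoins V1 to V0, 1 was 2-fold or more higher and 0 were lower, where 6.07% and 1.74% of all tested genes passed, with a median of 0.44, which was near 0 after length adjustment. The higher gene was Dmxl2, which encodes a large RAVE subunit, with 297 counts in the knockout library and 110 in the wild type library, 2.32-fold higher (1.86 to 2.91), and its log2 ratio was 0.12 after adjustment. It lies in the group with the longest transcripts, where 32.5% of genes passed 2-fold on the higher side. Ncoa7, whose protein binds the pump, had 187 counts in the knockout library and 91 in the wild type library, a log2 ratio of 0.81 as scaled and 0.46 adjusted. Of 8 tested genes of GATOR1, GATOR2 and KICSTOR, complexes that relay amino acid supply to the Rags, 0 passed 2-fold, with medians of -0.03 as scaled and -0.01 adjusted. Depdc5, of GATOR1, had 123 counts in the knockout library and 55 in the wild type library, a log2 ratio of 0.93 as scaled and 0.43 adjusted. Sec13, which also belongs to the secretory coat, had 917 counts in the knockout library and 1224 in the wild type library, with ratios of -0.64 and -0.38.

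The 6 tested genes for cytosolic amino acid sensors held 1 higher and 1 lower gene past 2-fold. Over all tested genes 6.07% passed on the higher side and 1.74% on the lower side. The list had medians of 0.49 as scaled and 0.40 adjusted. Castor1, the arginine sensor, had 66 counts in the knockout library and 119 in the wild type library, 2.10-fold lower (1.54 to 2.88), and a log2 ratio of -0.84 after length adjustment. Castor2, its relative, had 55 counts in the knockout library and 21 in the wild type library, 2.25-fold higher (1.34 to 3.91), and 0.76 on the log2 scale after adjustment. Neither passed 2-fold once length was adjusted for, and both rest on few counts.

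Of 12 tested lysosomal channels and amino acid transporters, 1 was 2-fold or more higher and 0 were lower. Over all tested genes 6.07% passed on the higher side and 1.74% on the lower side. The list had medians of 0.03 as scaled and 0.02 adjusted. Slc36a1, a proton-coupled amino acid transporter of the lysosome, had 252 counts in the knockout library and 81 in the wild type library, 2.67-fold higher (2.07 to 3.47), a log2 ratio of 1.41 as scaled and 0.95 adjusted. Tpcn1, a lysosomal cation channel, had 209 counts in the knockout library and 108 in the wild type library, with log2 ratios of 0.73 as scaled and 0.37 adjusted. After adjustment 1 gene of this list was lower by 2-fold, the cystine transporter Slc7a11, chosen after its value was seen, with 4735 counts in the knockout library, 4657 in the wild type library and an adjusted log2 ratio of -1.15 for a transcript of 9227 bases. None of 10 tested genes among 11 mTORC1 substrates and MiT/TFE factors, and none of 8 tested among 12 other mTOR complex genes, passed 2-fold, with medians of 0.21 and 0.19, or 0.12 and 0.03 after adjustment. The untested substrate was Grb10, an adaptor that restrains insulin signalling, with 10 counts in the knockout library and 43 in the wild type library, 5.01-fold lower (2.48 to 11.2), named after its value was seen. Larp1 and Ulk1, substrates that act in translation and autophagy, had scaled log2 ratios of 0.96 and 0.82, which adjusted were 0.31 and 0.38. Eif4ebp2, named after its value was seen, had the adjusted ratio furthest from 0 among the tested genes of this list. Its log2 ratio was 0.79 as scaled and 0.98 adjusted, or 1.98-fold higher (1.47 to 2.69) after adjustment. Deptor, an mTOR inhibitor, had a log2 ratio of 0.92 as scaled and 0.04 adjusted, and Rictor, of mTORC2, one of 0.43 as scaled and -0.54 adjusted.

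**Figure D4:**
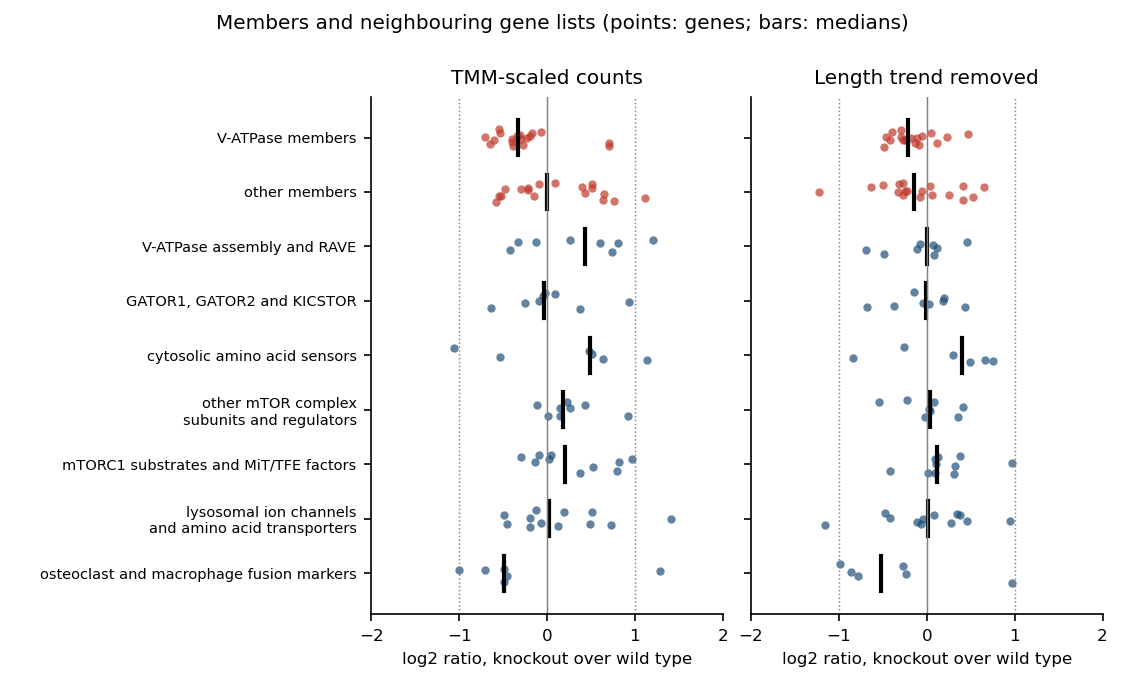
Log2 ratio of the Lgmn knockout library over the wild type library for tested genes of the V-ATPase and the other members (red) and of neighbouring lists (blue), as TMM-scaled counts (left) and with the length trend removed (right). Each point is a gene, black bars are list medians and dotted lines mark 2-fold. The V-ATPase genes have a median of -0.33 on the left and -0.21 on the right, and the assembly list has one of 0.44 on the left and near 0 on the right.

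Because Atp6v0d2 and Tcirg1 are also osteoclast genes, markers of osteoclasts and of macrophage fusion were read beside them. Ctsk (cathepsin K) and Acp5 (tartrate-resistant acid phosphatase) had 495 and 211 FPKM in the knockout library, against 587 and 251 FPKM in the wild type library. Calcr, the calcitonin receptor, was listed in neither library, and Oscar and Ocstamp had at most 6 counts in either. Of 6 tested genes of this list, 1 was 2-fold or more higher and 1 was lower. Over all tested genes 6.07% passed on the higher side and 1.74% on the lower side. The list had medians of -0.49 as scaled and -0.53 adjusted. Nfatc1, a transcription factor of osteoclasts and lymphocytes, had 169 counts in the knockout library and 59 in the wild type library, 2.46-fold higher (1.82 to 3.36). Dcstamp, which acts in cell fusion, had 43 counts in the knockout library and 75 in the wild type library, 2.03-fold lower (1.38 to 3.03). After length adjustment their log2 ratios were 0.97 and -0.86.

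Markers of other cells differed between the libraries too. Of 10 tested mesenchymal markers, 9 were 2-fold or more lower in the knockout library, where 1.74% of all tested genes passed. The FPKM of the 12 in the list summed to 36.9 in the knockout library and 142 in the wild type library. Tagln and Acta2 were lowest in ratio. Of 8 tested T and NK cell markers, 3 were 2-fold or more higher, where 6.07% of all tested genes passed. The FPKM of the 12 listed summed to 305 in the knockout library and 161 in the wild type library, most of it from Gzma and Gzmb. Klrd1 and Klrb1c were highest in ratio. Of 8 epithelial carcinoma markers, Cldn3 and Cldn4 were listed in neither library, Cldn7 had no count in the knockout library and 1 in the wild type library, and neither Epcam, Krt8 nor Krt18 exceeded 5 counts. Cdh1 had 21 counts in the knockout library and 11 in the wild type library. Krt19 had 4 counts in the knockout library and 67 in the wild type library, and the list's FPKM summed to 1.17 in the knockout library and 5.33 in the wild type library. Of 9 tested macrophage markers, 2 were 2-fold or more higher and 0 were lower, where 6.07% and 1.74% of all tested genes passed. Their log2 ratios had a median of 0.47 as scaled and 0.26 adjusted, with 5 above 0 and 4 below as scaled. Mertk, highest in ratio, was 2.35-fold higher (2.04 to 2.73), and 2.12-fold higher after length adjustment. The list's FPKM summed to 17406 in the knockout library and 19262 in the wild type library, most of it from Lyz2 and Cd68. The part of these differences in the ratios of the 36 genes, most of which all cell types express, was not tested.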

How the data were processed

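Per the file headers, the deposited files hold estimated counts, transcript lengths in bases and FPKM per Entrez gene for 1 Lgmn knockout and 1 wild type library, in the layout of RSEM. FPKM, the authors' normalized value, scales fragments by transcript length and library size. The submitters' processing notes name HISAT2, Bowtie2, RSEM and the build mm10 but no versions. Symbols and coordinates came from RefSeq GRCm38.p6, which matched 15561 of 15605 identifiers, and exon overlaps from GENCODE vM21.

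Counts were rounded and scaled with TMM (edgeR 4.0.16, R 4.3.3; factors 1.09 for knockout and 0.921 for wild type). A gene absent from 1 file was given 0 counts. Log2 ratios, knockout over wild type, had 1 scaled count added, and printed folds had none. Genes with 50 or more estimated counts in the higher library were compared in size. The length trend was a lowess with a span of 0.3 (statsmodels 0.14.6). Intervals are 95% Clopper-Pearson for ratios and exact conditional for odds ratios (scipy 1.17.1), with the trend taken as fixed. With 1 library per genotype there was no test across samples.

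The members and all lists were chosen with earlier results of these data known. The text names all members, the 2 tested genes with the largest ratio in either direction in each neighbouring list, and Lgmn. Marker genes with other values, Tfeb, Tfe3, Mitf, Eif4ebp2, Slc7a11, Grb10, Pkd1, Bricd5 and Rragb were named after their values were seen. Kics2, Samtor and Trac were not analysed here. A further marker gene that this rule would name is not reported here. The calculation was tested on simulated data. Alternatives were DESeq2 1.42.0 size factors, library totals, median centring, FPKM with 0.1 or 1 added, a minimum of 10 or 200 counts or none, 0.5 or 5 added to scaled counts, a span of 0.6, and thresholds of 1.5-fold and 4-fold.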

Additional observations from a re-analysis of the deposited data

How the results depend on the processing

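The counts of members past 2-fold, 1 higher and 0 lower, were the same with DESeq2 size factors, library totals, median centring, FPKM with 0.1 added, each count minimum and both pseudocounts. With FPKM and 1 added, 0 were higher. With the length trend removed, at a span of 0.3 or 0.6, 0 were higher and 1 was lower. At 1.5-fold 6 were higher and 4 lower, and at 4-fold 0 were higher. The members' median of -0.23 became 0.0122 with library totals, 0.0137 with FPKM and 0.1 added and 0.0120 with FPKM and 1 added, settings that put the median of all genes at 0.24, 0.23 and 0.20. The V-ATPase median of -0.33 became -0.0889 with library totals, -0.0866 with FPKM and 0.1 added, -0.0861 with FPKM and 1 added, -0.21 with a span of 0.3 and -0.22 with a span of 0.6. With library totals or FPKM 8 of 36 members differed in sign, and 8 did with the length trend removed.

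Over all genes, 577 were higher and 165 lower. Library totals gave 1036 and 107, FPKM with 0.1 added 936 and 102, and FPKM with 1 added 282 and 69. A minimum of 10 counts gave 923 and 436, one of 200 gave 274 and 67, and none gave 1460 and 1531, as more or fewer genes entered. A span of 0.3 gave 203 higher and one of 0.6 gave 197. Thresholds of 1.5-fold and 4-fold gave 1563 and 607, and 40 and 45. With the length trend removed, the odds ratio of Atp6v0d2 to Atp6v0d1 was 0.933, against 1.05, that of Tcirg1 to Atp6v0a1 0.694, against 0.585, and that of Rragd to Rragc 0.669, against 0.914. For changes with no construction named, the cause was not tested. No paired analysis was possible because each genotype has 1 library. Counting error limits Mlst8, Tsc1, Tsc2 and Mtor most, with 38 to 112 counts in the wild type library.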
